A study of Homo sapiens with 12 samples.

Results

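Serpins are a family of protease inhibitors whose members were followed here in breast cancer cells treated with a PKCδ siRNA. The 9 genes described are SERPINB7, SERPINB1, SERPINB2, SERPINB5, SERPINB6, SERPINB8, SERPINB9, SERPINE2 and SERPINH1. They were chosen by name, as SERPINB7 and relatives of it, because SERPINB7 had been seen to be much higher with the PKCδ siRNA in 1 of the cell lines. Of the 9 genes, 7 had at least 1 probe in the annotation (10 probes in all, of 47323, of which 30113 carried a single symbol). SERPINB2 and SERPINB6 were not analysed here since no probe of the annotation carried their symbols. This does not show that the array lacks probes for them. A probe was kept for testing where its detection p was under 0.01 on at least 3 arrays. This held for 8 of the 10 serpin probes, from 6 genes, and for 19439 of all 47323 probes. The SERPINB7 values in MDA-MB-468 cells and between the lines chose the group, so they are given as a description, with no test.

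The samples were 2 established lines from breast cancers of the basal-like kind, MDA-MB-468 and BT-549, each transfected with an siRNA against PRKCD, the gene of PKCδ (siPRKCD), or with a control siRNA (siControl). Each of the 4 groups had 3 Illumina HT-12 v4 BeadChip arrays, 12 in all. Within a line the siRNA alone separated the groups, while the lines also differ in their medium, to which insulin was added for BT-549 cells, so that line and medium cannot be told apart. PKCδ is a serine/threonine kinase with roles in apoptosis and survival, and the study used its siRNA to induce cell death and to find survival genes. A table legend of the study calls the replicates experiments, and no more is said on how the cultures were kept apart, so p-values refer to the spread between these experiments.

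Serpins act as suicide substrates. The target protease cuts an exposed loop of the inhibitor, which then snaps into the body of the protein and traps the protease in a covalent complex. Clade B serpins lack a classical signal peptide and mostly stay inside the cell, where they are known to protect it from proteases that leak out of lysosomes and granules, and their human genes lie in one cluster at 18q21 and another at 6p25. Other members are secreted and control clotting and plasminogen activation. A few have lost the inhibitory function, among them the collagen chaperone SERPINH1.

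The arrays were of similar quality. With quantile-normalized log2 signals, arrays of a group correlated at 0.990 to 0.996. In MDA-MB-468 cells 16562 to 17724 probes were detected on siPRKCD arrays and 16036 to 17604 on siControl arrays. In BT-549 cells the numbers were 15616 to 16595 on siPRKCD arrays and 16640 to 17263 on siControl arrays, which did not overlap, and the part of this in the BT-549 results was not tested. The PRKCD probe ILMN_1801105 fell by 1.72 (SE 0.11, adjusted p = 2.0e-07) on the log2 scale in MDA-MB-468 cells. In BT-549 cells it fell by 0.87 (SE 0.11, adjusted p = 9.8e-05), to a mean of 6.86 with siPRKCD. It was detected there on 1 of 3 siPRKCD arrays, so background limits the fall that can be read. The difference of its effects, MDA-MB-468 minus BT-549, was -0.84 (adjusted p = 0.0049). That call was lost with background correction (-0.58, adjusted p = 0.36) and median centring (-0.76, adjusted p = 0.072). A second PRKCD probe was not detected on any array. Of 8 epithelial marker genes, 7 were detected on all MDA-MB-468 arrays and 1 on all BT-549 arrays, while of 6 mesenchymal markers 2 were detected on all arrays of MDA-MB-468 and 5 on all arrays of BT-549. Of 4 blood cell and hepatocyte markers, 3 were detected on no array, and ALB was detected on all 12. Since RNA was taken from whole cultures, fewer cells of a kind and less RNA per cell cannot be told apart.

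SERPINB7, also called megsin, is a clade B serpin known from the epidermis and from kidney mesangial cells. In MDA-MB-468 cells its probe ILMN_1767685 had log2 signals of 9.71, 10.13 and 10.06 on the siPRKCD arrays, against 7.35, 7.42 and 7.63 on the siControl arrays. Every siPRKCD array was thus far above every siControl array, and the difference of the means was 2.50 on the log2 scale, or 5.65-fold. The other probe, ILMN_2395139, had log2 signals of 9.26, 9.60 and 9.75 with siPRKCD, against 7.24, 7.26 and 7.48 with siControl, a difference of 2.21. Among the 11459 genes with a kept probe, SERPINB7 ranked 1 by its difference in this line.

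In BT-549 cells neither SERPINB7 probe was detected on any array. The log2 signals of ILMN_1767685 were 6.73, 6.89 and 6.71 with siPRKCD, against 6.64, 6.62 and 6.66 with siControl. The faintest detected probe of an array lay between 6.87 and 6.99 on the 12 arrays, so these signals were at the level of the background and give no fold change. With siPRKCD, MDA-MB-468 cells were at least 8.05-fold above BT-549 cells by this probe and at least 5.99-fold by the other, and with siControl at least 1.47-fold and 1.34-fold, taking the faintest detected signal of each BT-549 array as the upper limit. The signals hold the background of the array, so that differences of dim probes are understated. After background correction the differences in MDA-MB-468 cells were 3.30 and 3.10 on the log2 scale, or 9.85-fold and 8.60-fold.

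**Figure D1:**
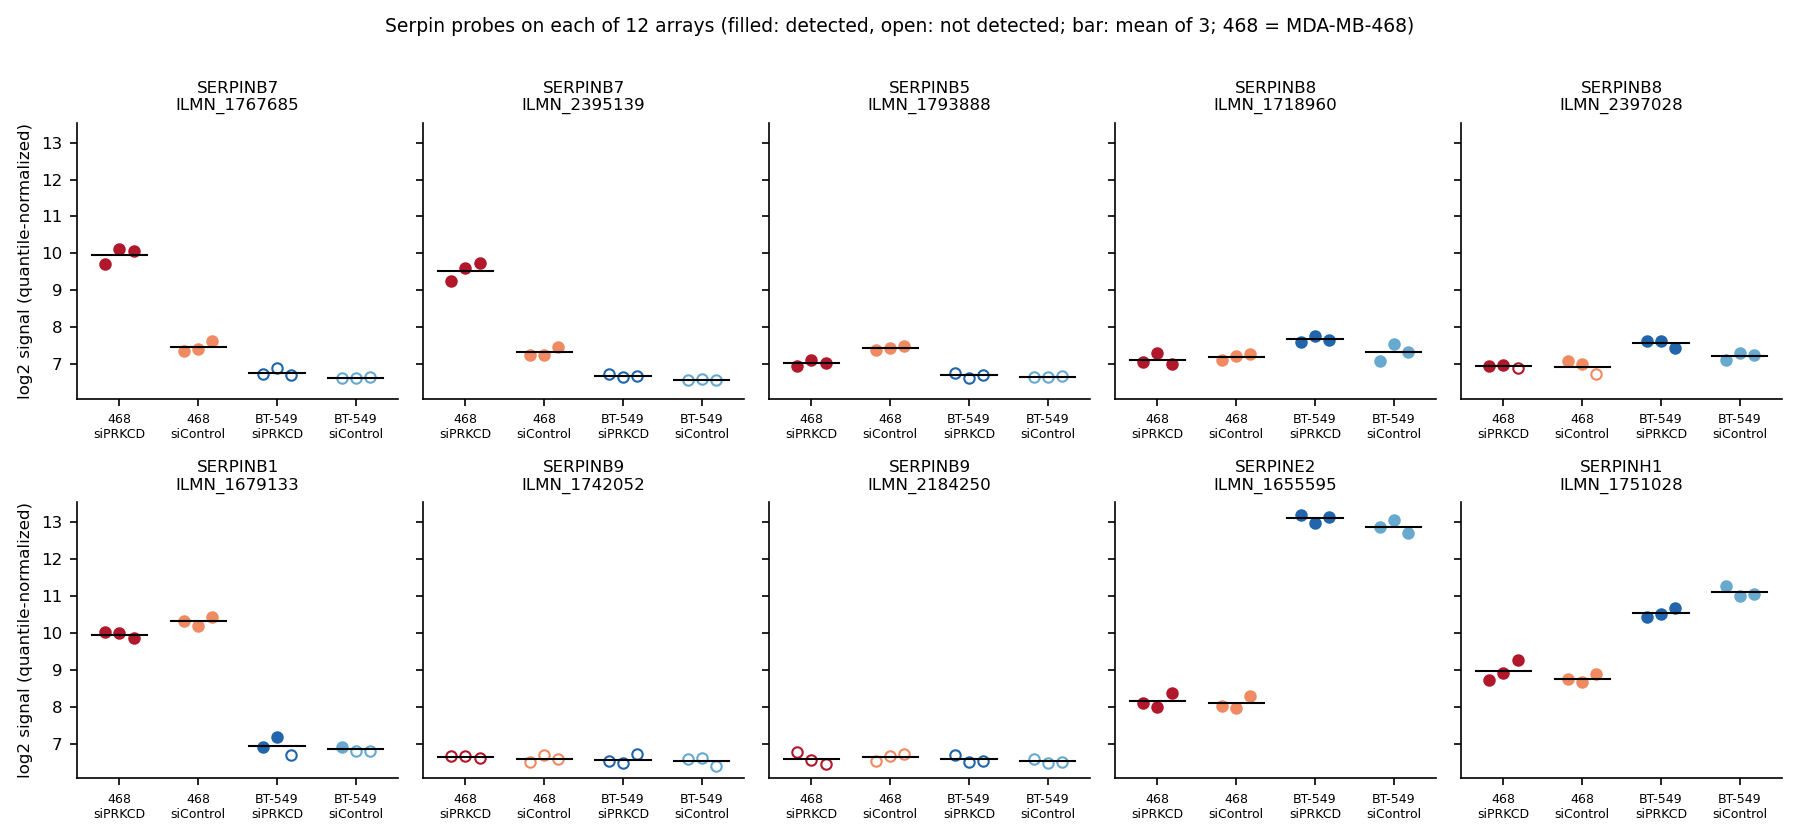
Quantile-normalized log2 signal of each of the 10 serpin probes (panels, y axis) on the 3 arrays of each group (x axis), with filled points for arrays where the probe was detected, open points where it was not, and a bar at the group mean. Both SERPINB7 probes stand at 9.26 to 10.13 in MDA-MB-468 siPRKCD cells and at 7.24 to 7.63 in MDA-MB-468 siControl cells, while no other probe shows a step of this size with siPRKCD.

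None of the measured relatives was called higher with siPRKCD in MDA-MB-468 cells. Of the 6 kept probes of the other members, 0 were called higher and 2 lower there (limma, Benjamini-Hochberg adjusted p under 0.05). Of all probes tested, 10.7% were called higher and 11.0% lower in this line. With 6 probes, 0 called higher is near the share of all probes. The probes that fell were those of SERPINB5 and SERPINB1. The 95% intervals of the log2 fold change ended at -0.25 for SERPINB5, -0.11 for SERPINB1, 0.17 and 0.22 for the SERPINB8 probes, 0.33 for SERPINE2 and 0.47 for SERPINH1. After background correction the highest of these upper ends was 0.60, again of SERPINH1, or 1.51-fold.

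In BT-549 cells 2 of the 6 probes rose and 1 fell, against 10.1% of all probes higher and 11.4% lower. The risers were the 2 probes of SERPINB8, and the probe that fell was that of SERPINH1. The difference of the siRNA effect between the lines (MDA-MB-468 minus BT-549) was called higher for 1 probe, of SERPINH1, and lower for 1 probe, of SERPINB5, which was undetected in BT-549 cells, where 3.94% of all probes were called higher and 3.66% lower. Between the lines, the siControl arrays of MDA-MB-468 were higher than those of BT-549 in 2 of the 6 probes and lower in 3, against 27.1% and 28.9% of all probes. The 2 higher probes, of SERPINB1 and SERPINB5, were at or near background in BT-549 cells.

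**Figure D2:**
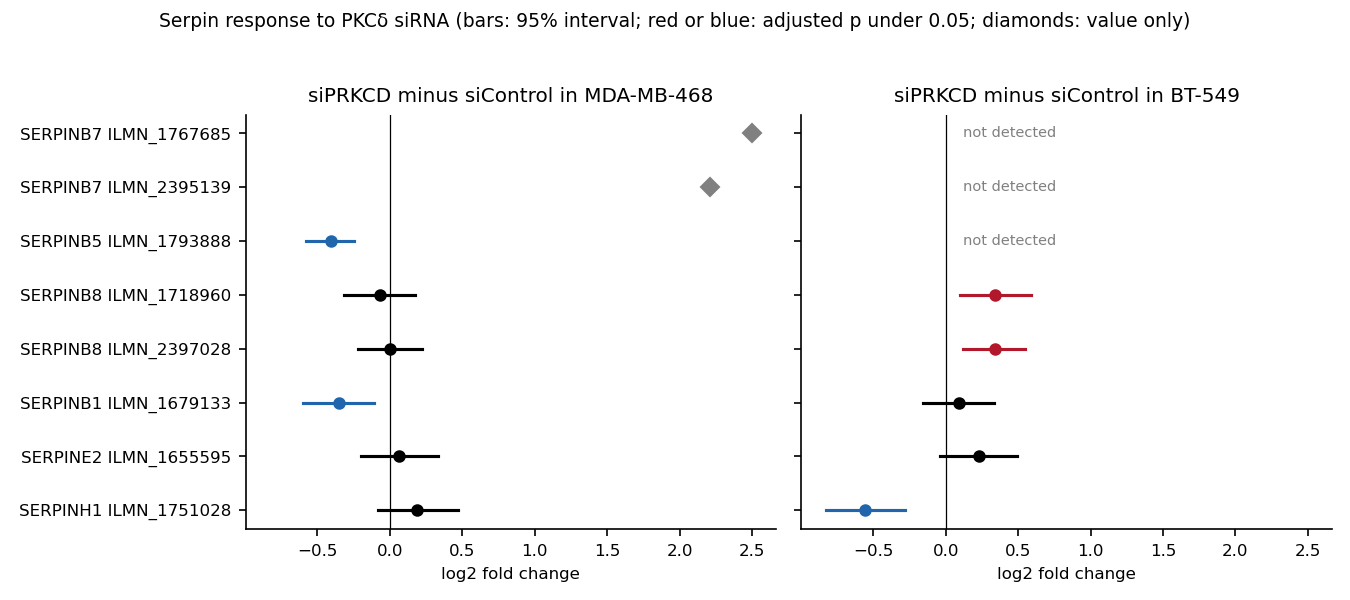
Log2 fold change (x axis), siPRKCD minus siControl, of the 8 kept serpin probes in MDA-MB-468 cells (left) and BT-549 cells (right), with 95% intervals from limma and colour where the adjusted p was under 0.05. SERPINB7 (grey diamonds, 2.50 and 2.21) is a value with no test, and the highest interval end among the other probes in MDA-MB-468 cells is 0.47.

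SERPINB5 (maspin) is a clade B protein of mammary epithelium without protease inhibitory activity, known as a candidate tumour suppressor. Its probe ILMN_1793888 had log2 signals of 6.95, 7.11 and 7.03 in MDA-MB-468 siPRKCD cells, against 7.39, 7.44 and 7.49 in MDA-MB-468 siControl cells. The groups did not overlap, and SERPINB5 fell by 0.41 (SE 0.08, adjusted p = 0.0017), in the direction opposite to SERPINB7. After background correction the fall was larger, at -0.95 (95% interval -1.25 to -0.64). No BT-549 array detected SERPINB5, so that the probe was kept through MDA-MB-468 cells alone, with MDA-MB-468 siControl cells at least 1.45-fold above BT-549 siControl cells. The effect in MDA-MB-468 cells minus that in BT-549 cells was -0.44 (SE 0.11, adjusted p = 0.025), but a fall could not show in BT-549 cells, so this value restates the fall in MDA-MB-468 cells and no different response can be read from it. That call was lost when MDA-MB-468 siPRKCD replicate 1, MDA-MB-468 siControl replicate 2, BT-549 siPRKCD replicate 1 or BT-549 siControl replicate 1 or 2 was left out (adjusted p 0.057 to 0.069) and with median centring (adjusted p = 0.062). Epithelial markers moved with it. Of 8, 5 fell with siPRKCD in MDA-MB-468 cells and 0 rose, beside 11.0% of all probes called lower and 10.7% higher. The summed log2 signal of the 8 markers was 80.45 to 81.52 with siPRKCD and 83.86 to 84.88 with siControl. Their part in the SERPINB5 result was not tested.

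SERPINB8, an intracellular inhibitor that can block furin, was read by 2 probes. In BT-549 cells ILMN_2397028 had log2 signals of 7.64, 7.62 and 7.45 with siPRKCD, against 7.13, 7.30 and 7.26 with siControl, and ILMN_1718960 had 7.61, 7.76 and 7.65, against 7.10, 7.55 and 7.34. Each probe was higher on every siPRKCD array, with a rise of 0.34 (SE 0.10, adjusted p = 0.027) for the first and 0.34 (SE 0.11, adjusted p = 0.044) for the second. These rises were small beside the step of SERPINB7 in the other line, and they depended on single arrays and on the scaling. The call of ILMN_2397028 was lost without BT-549 siPRKCD replicate 1 or 2 or BT-549 siControl replicate 1 or 3 (adjusted p 0.051 to 0.12). That of ILMN_1718960 was lost without any 1 of the 3 BT-549 siPRKCD arrays, BT-549 siControl replicates 1 and 3, MDA-MB-468 siPRKCD replicate 1 and MDA-MB-468 siControl replicates 1 and 2 (adjusted p 0.053 to 0.22). With background correction the rises were 0.68 and 0.66 and neither was called (adjusted p = 0.059 each), and ILMN_1718960 was not called with no filter on detection (adjusted p = 0.069) or on the 6 arrays of the line alone (adjusted p = 0.063). With median centring neither was called (adjusted p = 0.18 and 0.20), and under it the line had 566 probes higher and 1784 lower (24.1% of calls higher), against 1973 and 2211 with quantile normalization (47.2%).

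In MDA-MB-468 cells no difference of the SERPINB8 probes beyond their spread was found. ILMN_1718960 averaged 7.13 ± 0.15 with siPRKCD and 7.20 ± 0.08 with siControl (SD, n = 3 each), with a 95% interval of the difference from -0.32 to 0.17. ILMN_2397028 averaged 6.94 ± 0.04 with siPRKCD and 6.94 ± 0.19 with siControl (interval -0.22 to 0.22), and was detected on 2 of 3 arrays in each group. The difference of effects between the lines was -0.42 (adjusted p = 0.14) and -0.34 (adjusted p = 0.19) for the 2 probes, neither past the threshold. Among siControl arrays ILMN_2397028 was lower in MDA-MB-468 than in BT-549 cells by -0.29 (SE 0.10, adjusted p = 0.025), a call lost without MDA-MB-468 siControl replicate 3 or BT-549 siControl replicate 2 or 3 (adjusted p 0.065 to 0.13), while ILMN_1718960 had -0.13 (adjusted p = 0.35).

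SERPINB7, SERPINB5 and SERPINB8 lie in the same cluster at 18q21, which made it possible to ask whether neighbours moved together. In the RefSeq gene order, 10 clade B serpins follow VPS4B there. Of these, 9 had an annotated probe and 3 were detected on at least 3 arrays. The other 6 (SERPINB12, SERPINB13, SERPINB4, SERPINB3, SERPINB11 and SERPINB10) were detected on no array by their brightest probe. SERPINB11 and SERPINB10, the nearest measured serpins on either side of SERPINB7, had mean log2 signals of 6.64 and 6.65 in MDA-MB-468 siPRKCD cells and of 6.59 and 6.71 in MDA-MB-468 siControl cells, all undetected. Of the 6 measured genes beside the serpins at 18q21, 1 rose and 0 fell in MDA-MB-468 cells and 0 rose and 1 fell in BT-549 cells, with median log2 fold changes of 0.23 and 0.24, beside 0.01 over all probes in each line. Of all probes, 10.7% were called higher and 11.0% lower in MDA-MB-468 cells, and 10.1% and 11.4% in BT-549 cells. With 6 genes, the counts lie near these shares. The gene called higher was BCL2, the apoptosis inhibitor, with 0.28 (SE 0.10, adjusted p = 0.046), and its call was lost on leaving out any 1 of 9 arrays (adjusted p 0.052 to 0.17) and with median centring (adjusted p = 0.16). The 9 arrays were all 3 MDA-MB-468 siControl arrays, MDA-MB-468 siPRKCD replicates 1 and 3, BT-549 siPRKCD replicates 1 and 3 and BT-549 siControl replicates 2 and 3. The gene that fell was PIGN, of the pathway that makes lipid anchors of membrane proteins, by 0.47 (SE 0.11, adjusted p = 0.0060).

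**Figure D3:**
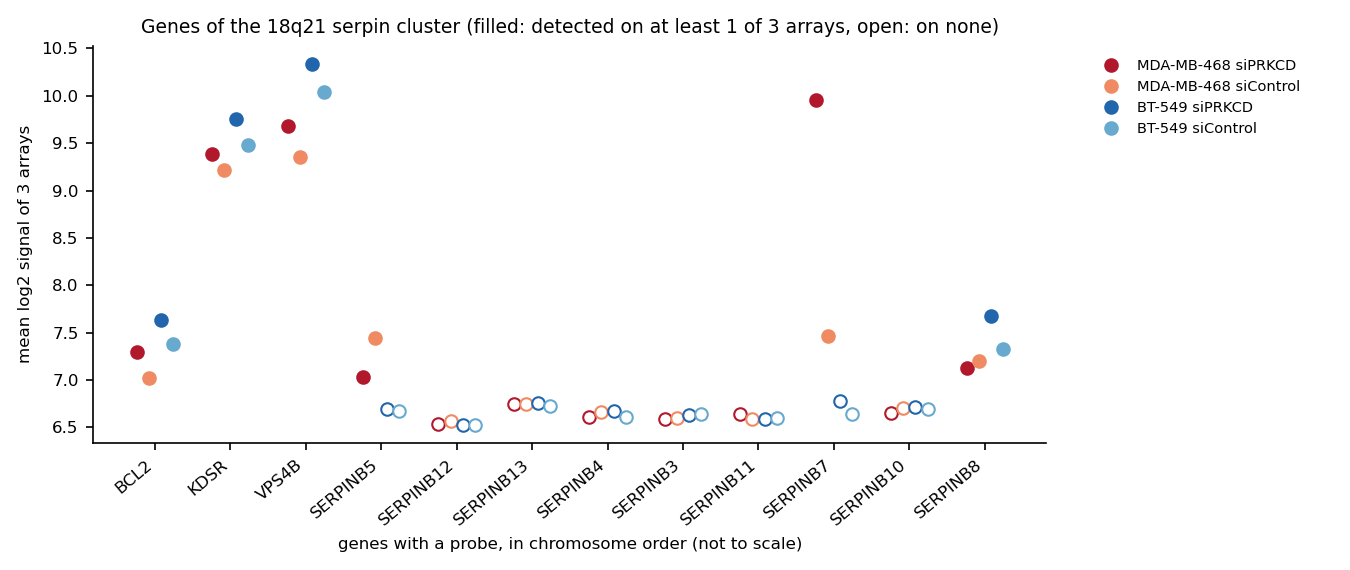
Mean log2 signal of 3 arrays (y axis) for the genes of the 18q21 cluster with an annotated probe, in the 4 groups. Genes are in chromosome order but not to scale (x axis), with open points where no array of the group detected the probe. Signals of different probes are not comparable with each other. SERPINB7 stands out by the gap between its MDA-MB-468 siPRKCD mean (9.96) and its MDA-MB-468 siControl mean (7.47), while 6 serpins of the cluster are open in all groups.

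The promoters of these genes are shown because neighbours in one cluster differed in their response. RefSeq gives 16 windows (250 bases before to 50 after a transcription start, GRCh38.p14) for the 9 genes, of which SERPINB7 has 3. The motif TGANTCA was searched on both strands. It is the core bound by AP-1 factors (FOS and JUN dimers), TGAGTCA or TGACTCA, loosened to any middle base. It was found in 5 of the 16 windows, from 4 of the 9 genes, while it occurs in 7.71% of all 35116 windows. The 4 genes were SERPINB7, SERPINB8, SERPINB5 and SERPINB2, all at 18q21. SERPINB7 held TGAGTCA 39 bases before its middle start and 45 bases before its downstream start, and SERPINB8 held it 28 bases before its start. SERPINB5 and SERPINB2 held only TGAATCA, 146 and 102 bases before their starts, and so matched by the loosened form alone. The loosened motif was thus present in SERPINB7 and in SERPINB8, whose rise in BT-549 cells depended on single arrays and on the scaling. The SERPINB8 effects were not called different between the lines. The motif was also present in SERPINB5, which fell in MDA-MB-468 cells. The arrays do not say which start was used, and a match is a description of the letters, not a site. The 250 bases before each start are given on the plus strand, 5′ to 3′, with matches to TGANTCA in capitals.
SERPINB7 middle start, chr18:63775168-63775417: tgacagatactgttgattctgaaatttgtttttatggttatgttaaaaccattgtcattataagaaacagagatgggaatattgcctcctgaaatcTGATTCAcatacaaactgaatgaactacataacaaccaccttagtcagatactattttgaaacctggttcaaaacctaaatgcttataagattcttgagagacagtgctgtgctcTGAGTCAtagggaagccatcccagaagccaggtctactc
SERPINB7 downstream start, chr18:63777531-63777780: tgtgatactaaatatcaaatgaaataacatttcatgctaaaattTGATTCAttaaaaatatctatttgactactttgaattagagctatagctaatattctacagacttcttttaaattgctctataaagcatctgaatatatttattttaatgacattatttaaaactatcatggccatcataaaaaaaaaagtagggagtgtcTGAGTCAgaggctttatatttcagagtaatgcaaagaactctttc
SERPINB8 start, chr18:63969831-63970080: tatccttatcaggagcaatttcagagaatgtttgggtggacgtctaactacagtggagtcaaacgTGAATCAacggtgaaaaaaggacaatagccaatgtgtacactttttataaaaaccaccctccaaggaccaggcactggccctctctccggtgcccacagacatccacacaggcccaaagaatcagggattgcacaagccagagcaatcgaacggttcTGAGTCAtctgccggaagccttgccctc
SERPINB5 start, chr18:63476708-63476957: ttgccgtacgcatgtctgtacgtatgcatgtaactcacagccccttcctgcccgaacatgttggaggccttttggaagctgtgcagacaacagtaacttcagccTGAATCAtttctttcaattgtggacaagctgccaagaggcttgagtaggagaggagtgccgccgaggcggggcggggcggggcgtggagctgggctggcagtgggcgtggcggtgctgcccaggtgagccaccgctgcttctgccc

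SERPINB1 and SERPINB9 belong to the 6p25 cluster, with SERPINB6 beside them. SERPINB1 inhibits neutrophil elastase, proteinase 3 and cathepsin G. In MDA-MB-468 cells its probe ILMN_1679133 had log2 signals of 10.03, 9.99 and 9.86 with siPRKCD, against 10.32, 10.18 and 10.44 with siControl, with no overlap. SERPINB1 fell by 0.35 (SE 0.11, adjusted p = 0.039). The call was close to the threshold and was lost on leaving out MDA-MB-468 siPRKCD replicate 1, 2 or 3, MDA-MB-468 siControl replicate 1 or 3, or BT-549 siControl replicate 2 (adjusted p 0.053 to 0.13). It was also lost with background correction (adjusted p = 0.34), with median centring (adjusted p = 0.17) and with no filter on detection (adjusted p = 0.061).

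In BT-549 cells SERPINB1 was near the limit of detection, with log2 signals of 6.93, 7.19 and 6.71 with siPRKCD, 2 of them detected, against 6.92, 6.82 and 6.82 with siControl, 1 of them detected. The groups overlapped (difference 0.09, adjusted p = 0.66), and the difference of effects between the lines was -0.44 (SE 0.16, adjusted p = 0.12), which passed the threshold without BT-549 siPRKCD replicate 3 (adjusted p = 0.041). The line difference was much larger than either effect. In siControl cells SERPINB1 was 3.46 higher in MDA-MB-468 than in BT-549 on the log2 scale (SE 0.11, adjusted p = 1.4e-12), or 11.0-fold on the measured signals. Since BT-549 siControl cells were detected on 1 of 3 arrays, this fold is compressed by the background, and after background correction the difference was 5.19 (95% interval 4.64 to 5.74).

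SERPINB9, the inhibitor of granzyme B through which cells resist cytotoxic lymphocytes, was not detected on any array by either probe. Its log2 signals lay between 6.62 and 6.68 in MDA-MB-468 siPRKCD cells and between 6.50 and 6.71 in MDA-MB-468 siControl cells by ILMN_1742052, and no change could be read at this signal. Of the 9 measured genes around the 6p25 serpins, 0 rose and 3 fell in MDA-MB-468 cells, and 3 rose and 3 fell in BT-549 cells, with medians of -0.15 and 0.11. Over all probes 10.7% were higher and 11.0% lower in MDA-MB-468 cells, and 10.1% higher and 11.4% lower in BT-549 cells. The falls included BPHL, a serine hydrolase, by 0.70 (SE 0.11, adjusted p = 4.5e-04) in MDA-MB-468 cells and TUBB2A, a β-tubulin, by 0.96 (SE 0.15, adjusted p = 3.6e-04) in BT-549 cells. Each was also called lower in the other line. The call of BPHL in BT-549 cells was lost on leaving out any 1 of 5 arrays (adjusted p 0.062 to 0.17). That of TUBB2A in MDA-MB-468 cells was lost without any 1 of 3 arrays (adjusted p 0.060 to 0.079). The rises in BT-549 cells included SLC22A23, a member of the organic ion transporter family, by 0.55 (SE 0.14, adjusted p = 0.0098), not called with median centring (adjusted p = 0.10).

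SERPINE2 (protease nexin-1) is secreted and inhibits thrombin, urokinase and plasmin. Its probe ILMN_1655595 had log2 signals of 8.10, 8.0 and 8.38 in MDA-MB-468 siPRKCD cells, against 8.04, 7.96 and 8.29 in MDA-MB-468 siControl cells. In BT-549 cells they were 13.20, 12.98 and 13.13 with siPRKCD, against 12.88, 13.05 and 12.71 with siControl. The siRNA groups overlapped in each line, with a difference of 0.06 (95% interval -0.20 to 0.33, adjusted p = 0.78) in MDA-MB-468 and 0.23 (95% interval -0.04 to 0.49, adjusted p = 0.22) in BT-549. Its signal in MDA-MB-468 siControl cells was below that in BT-549 siControl cells by -4.78 on the log2 scale (SE 0.12, adjusted p = 7.9e-14), so that BT-549 was 27.5-fold higher.

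SERPINH1 (HSP47) resides in the endoplasmic reticulum and holds procollagen during folding, with no known protease target. Its probe ILMN_1751028 had log2 signals of 10.44, 10.51 and 10.69 in BT-549 siPRKCD cells, against 11.27, 10.99 and 11.05 in BT-549 siControl cells. It fell by 0.56 (SE 0.13, adjusted p = 0.0060), and all siPRKCD arrays were below all siControl arrays. In MDA-MB-468 cells it had 8.72, 8.91 and 9.26 with siPRKCD, against 8.75, 8.68 and 8.88 with siControl, which overlapped (difference 0.19, 95% interval -0.08 to 0.47, adjusted p = 0.33). The effect in MDA-MB-468 minus that in BT-549 was 0.75 (SE 0.18, adjusted p = 0.020). This call was lost without MDA-MB-468 siControl replicate 2 or BT-549 siControl replicate 1 (adjusted p 0.054 to 0.057), with background correction (adjusted p = 0.063) and with median centring (adjusted p = 0.065). In siControl cells SERPINH1 was lower in MDA-MB-468 than in BT-549 by -2.34 (SE 0.13, adjusted p = 4.9e-10), so that BT-549 was 5.05-fold higher.

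Collagens, the clients of SERPINH1, and the enzymes that modify and fold them were read as 1 list. Of its 25 measured genes, 1 rose and 11 fell in BT-549 cells (median -0.29, beside 0.01 over all probes), while 2 rose and 2 fell in MDA-MB-468 cells (median -0.05). In BT-549 cells 10.1% of all probes were called higher and 11.4% lower. In MDA-MB-468 cells the shares were 10.7% and 11.0%, and the counts of the list there lie near them. In BT-549 cells the procollagen gene COL3A1 fell by 1.14 (SE 0.10, adjusted p = 7.0e-06), COL5A1 by 1.21 (SE 0.17, adjusted p = 1.5e-04) and P4HA2, a subunit of prolyl 4-hydroxylase, by 1.78 (SE 0.21, adjusted p = 4.8e-05). In MDA-MB-468 cells P4HA2 fell too, by 0.97 (SE 0.21, adjusted p = 0.0039), but COL5A2 rose by 1.20 (SE 0.19, adjusted p = 5.0e-04) and P3H2, a prolyl 3-hydroxylase, by 0.90 (SE 0.12, adjusted p = 1.5e-04). The difference of effects between the lines was called higher for 8 of the 25 genes and lower for 0, against 3.94% and 3.66% of all probes, but COL3A1 and COL5A1 were undetected in MDA-MB-468 cells and could not fall there. In siControl cells 23 of the 25 were lower in MDA-MB-468 than in BT-549 cells, against 28.9% of all probes. Of 5 measured mesenchymal markers, one of which is the listed collagen COL1A2, 3 fell in BT-549 cells, and the summed log2 signal of the 6 listed was 62.87 to 63.67 with siPRKCD and 65.16 to 65.64 with siControl. Their part in the fall of SERPINH1 was not tested.

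SERPINH1 is a heat shock gene, and its promoter is shown because it holds the core of a heat shock element, GAANNTTC, 71 bases before its upstream start. The motif was found in 6.77% of all promoter windows on either strand and in 2 of the 16 windows of the members (the other is the upstream start of SERPINB7). Matches to GAANNTTC are in capitals in these 250 bases before the start, plus strand, 5′ to 3′. Neither SERPINH1 window held TGANTCA.
SERPINH1 upstream start, chr11:75562003-75562252: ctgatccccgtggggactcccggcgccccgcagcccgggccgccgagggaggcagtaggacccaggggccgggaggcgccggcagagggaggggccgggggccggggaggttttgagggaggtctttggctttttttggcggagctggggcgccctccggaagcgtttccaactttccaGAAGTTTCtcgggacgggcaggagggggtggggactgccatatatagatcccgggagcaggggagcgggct

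Of the other serpins, 25 genes had an annotated probe and 3 were kept. SERPINA3 (α1-antichymotrypsin), a secreted acute phase inhibitor of cathepsin G and chymase, had log2 signals of 9.66, 8.91 and 9.41 in MDA-MB-468 siPRKCD cells, against 10.25, 9.81 and 10.20 in MDA-MB-468 siControl cells. It fell by 0.76 (SE 0.25, adjusted p = 0.041), a call lost without MDA-MB-468 siPRKCD replicate 2 or 3, MDA-MB-468 siControl replicate 1 or 3 or BT-549 siPRKCD replicate 3 (adjusted p 0.052 to 0.19), with background correction (adjusted p = 0.10) and with median centring (adjusted p = 0.15). In BT-549 cells its groups overlapped (difference -0.45, adjusted p = 0.24). A fit blocked on replicate number gave an adjusted p of 2.5e-04 in MDA-MB-468 cells and of 0.011 in BT-549 cells. Whether these numbers pair the samples was not tested. SERPINI1 (neuroserpin), an inhibitor of tissue plasminogen activator, was detected in BT-549 cells alone, where its probe ILMN_1814333 had 7.64, 7.14 and 7.55 with siPRKCD, against 8.0, 7.90 and 7.83 with siControl, and fell by 0.47 (SE 0.11, adjusted p = 0.0093). Its other probe, ILMN_2207988, fell by 0.26 there (SE 0.09, adjusted p = 0.045), which was lost without BT-549 siPRKCD replicate 1 or 2, any BT-549 siControl array, MDA-MB-468 siPRKCD replicate 1 or 2 or MDA-MB-468 siControl replicate 1 or 2 (adjusted p 0.053 to 0.17). SERPINA10, detected on 4 of the 12 arrays, showed no call in either line. None of these 3 genes was called higher in either line, and of the 25 genes the remaining 22 had no kept probe.

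The proteases and cofactors that serpins act on were measured alongside. For the lists that follow, 10.7% of all probes were called higher and 11.0% lower in MDA-MB-468 cells. In BT-549 cells the shares were 10.1% and 11.4%, and the median over all probes was 0.01 in each line. Of 13 measured genes of plasminogen activation, thrombin and clotting, 1 rose and 5 fell in MDA-MB-468 cells (median -0.10), and 3 rose and 2 fell in BT-549 cells (median -0.05). PLAU, the urokinase targeted by SERPINE2, fell by 0.76 (SE 0.15, adjusted p = 0.0018) in MDA-MB-468 cells, where F3, the tissue factor that starts clotting, rose by 0.46 (SE 0.10, adjusted p = 0.0046; 0.052 with median centring). VLDLR, a receptor that clears serpin and protease complexes, rose by 0.86 (SE 0.11, adjusted p = 7.3e-05) in BT-549 cells and fell by 0.44 (SE 0.11, adjusted p = 0.0095) in MDA-MB-468 cells, the fall being lost with median centring (adjusted p = 0.082) and without MDA-MB-468 siControl replicate 1 (adjusted p = 0.050). The difference of its effects, MDA-MB-468 minus BT-549, was -1.30 (SE 0.15, adjusted p = 1.5e-04). Of 15 epithelial serine proteases, 0 rose and 5 fell in MDA-MB-468 cells (median -0.04), among them TMPRSS2 by 0.68 (SE 0.10, adjusted p = 3.2e-04), ST14 (matriptase) by 0.52 (SE 0.09, adjusted p = 5.3e-04) and KLK10 by 0.43 (SE 0.09, adjusted p = 0.0029), in the same arrays in which 5 of 8 epithelial markers fell. In BT-549 cells 0 rose and 1 fell (median -0.05), PRSS23 by 0.97 (SE 0.17, adjusted p = 9.3e-04). Most of the 15, TMPRSS2, ST14 and KLK10 among them, were detected on no BT-549 array, so a fall could not show there. Only PRSS23, HTRA1 and HTRA2 were detected on all BT-549 arrays, so this count and median do not compare the lines.

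Proteases of lysosomes and granules and inflammatory caspases are the kinds that clade B serpins meet inside the cell. Of 16 measured, 0 rose and 7 fell in MDA-MB-468 cells (median -0.30), and 1 rose and 5 fell in BT-549 cells (median -0.13). Among all probes, 10.7% were called higher and 11.0% lower in MDA-MB-468 cells, and 10.1% higher and 11.4% lower in BT-549 cells. The median over all probes was 0.01 in each line. In MDA-MB-468 cells the cathepsin CTSL fell by 0.56 (SE 0.09, adjusted p = 3.4e-04) and CASP1, the caspase that processes interleukin-1β, by 0.93 (SE 0.09, adjusted p = 8.7e-06), and the cathepsin CTSD averaged 7.65 with siPRKCD and 8.64 with siControl (adjusted p = 1.3e-04). CTSO fell by 0.78 (SE 0.14, adjusted p = 9.3e-04) in MDA-MB-468 cells and by 0.93 (SE 0.14, adjusted p = 2.7e-04) in BT-549 cells. CTSB fell by 0.81 (SE 0.15, adjusted p = 0.0014) in BT-549 cells and by 0.61 (SE 0.15, adjusted p = 0.0090) in MDA-MB-468 cells. CTSL was also called lower in BT-549 cells, a call lost on leaving out 1 array (adjusted p = 0.080), with background correction (adjusted p = 0.084) and with median centring (adjusted p = 0.14).

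Of 12 measured inhibitors outside the serpin family, 7 fell and 1 rose with siPRKCD in MDA-MB-468 cells (median -0.50). In BT-549 cells 4 fell and 1 rose (median -0.06). The shares of all probes called lower and higher were 11.0% and 10.7% in MDA-MB-468 cells and 11.4% and 10.1% in BT-549 cells, with a median of 0.01 in each line. PI3 (elafin), an epithelial inhibitor of elastase and so of a protease shared with SERPINB1, had a mean log2 signal of 11.35 with siPRKCD and 12.91 with siControl in MDA-MB-468 cells and fell by 1.56 (SE 0.09, adjusted p = 8.3e-08). SPINT2, which inhibits hepsin and matriptase, fell by 0.52 (SE 0.08, adjusted p = 3.6e-04) there. RECK, a membrane-anchored inhibitor of matrix metalloproteinases, fell by 0.95 (SE 0.10, adjusted p = 1.7e-05) in BT-549 cells, and in MDA-MB-468 cells siControl was at least 1.39-fold above siPRKCD, where RECK was not detected (adjusted p = 4.9e-04). The rise in BT-549 cells was that of CSTB, a cytosolic cathepsin inhibitor, by 0.54 (SE 0.11, adjusted p = 0.0020).

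**Figure D4:**
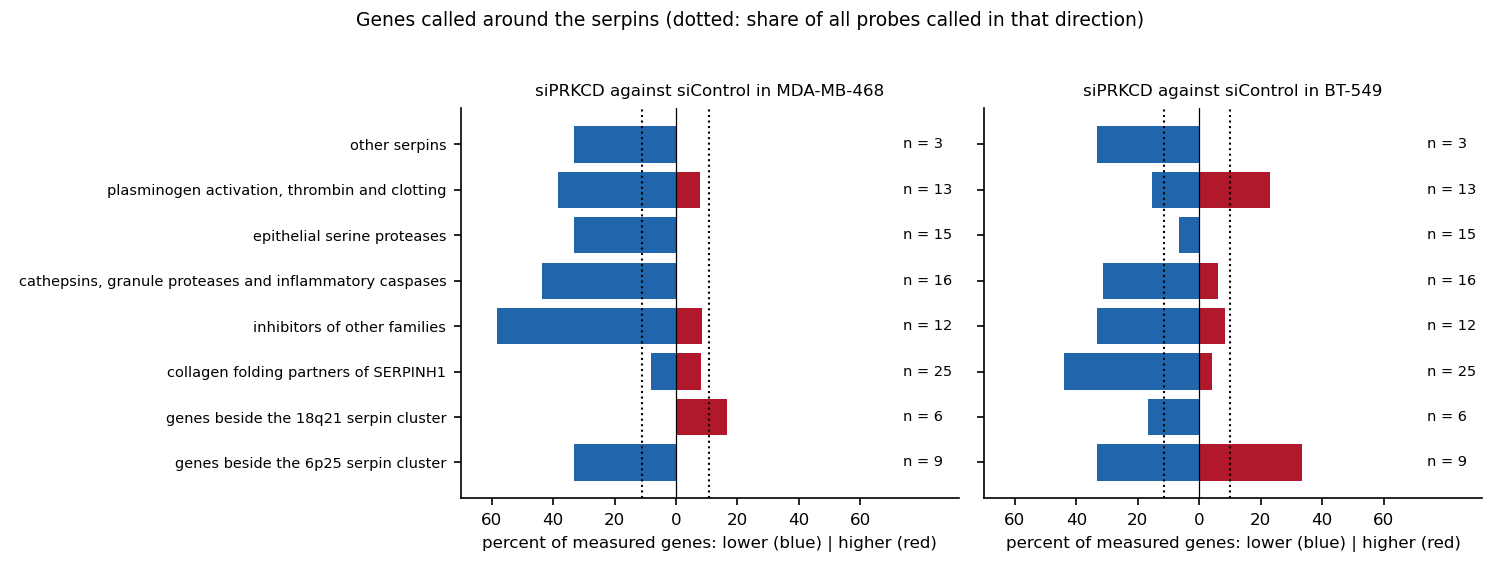
Share of the measured genes of 8 lists around the serpins (x axis, percent) called lower (blue, to the left) or higher (red, to the right) with siPRKCD against siControl in MDA-MB-468 cells (left panel) and BT-549 cells (right panel), with n the measured genes and dotted lines at the share of all probes called (MDA-MB-468, 11.0% lower and 10.7% higher; BT-549, 11.4% lower and 10.1% higher). Among the lists plotted, the longest bars to the left are those of the other inhibitor families in MDA-MB-468 cells (7 of 12) and of the collagen folding partners in BT-549 cells (11 of 25).

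Among the genes with a kept probe, the 5 nearest to SERPINB7 in profile were listed, however far they lay from it. Likeness was measured as the root mean square difference between the 4 group means, each gene centred on its own mean, from ILMN_1767685. The nearest were SNHG7, a snoRNA host gene (0.44), the stress gene GADD45G (0.49), the long non-coding RNA DIRC3 (0.49), CFAP144 (0.51) and PRELID3A (0.58). Their log2 differences in MDA-MB-468 cells ran from 1.13 (GADD45G) to 2.16 (SNHG7), below the 2.50 of SERPINB7. GADD45G averaged 9.11 in MDA-MB-468 siPRKCD cells and 7.99 in MDA-MB-468 siControl cells, and like SERPINB7 it was not detected in BT-549 cells. SNHG7, CFAP144 and PRELID3A, unlike SERPINB7, were detected on all arrays. The mean of SNHG7 was 2.16 higher with siPRKCD in MDA-MB-468 cells, and in BT-549 cells it was 8.82 with siPRKCD and 7.98 with siControl. These genes were picked by the likeness itself, so the values are a description of 4 means.

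**Figure D5:**
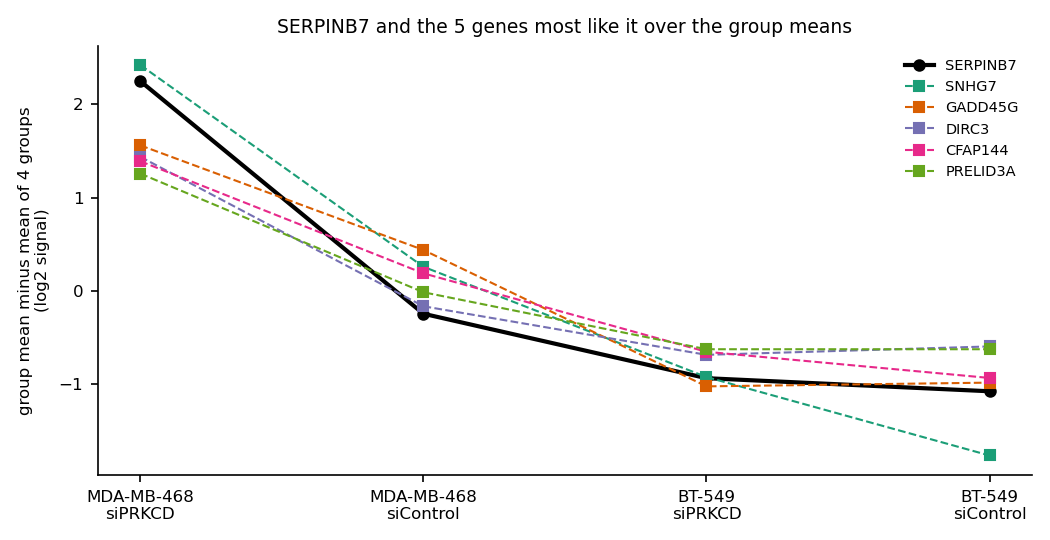
Group mean minus the mean of the 4 groups (y axis, log2 signal) for SERPINB7 (black) and the 5 genes nearest to it, in the 4 groups (x axis). All 6 genes are highest in MDA-MB-468 siPRKCD cells, and SNHG7 has the widest gap between the BT-549 groups, 0.84 higher with siPRKCD.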

How the data were processed

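Total RNA of the 12 cultures was extracted, DNase-treated, amplified and biotin-labelled, and hybridized to HT-12 v4 BeadChips. The authors deposited signal intensities before normalization and a normalized table of signal intensities, and for each probe and array the authors deposited a detection p-value against the negative control beads. The scanner software is not given in the sources used here. All 12 arrays were quantile-normalized together from the raw signals, and log2 values were used with no pseudocount. Probes with a detection p under 0.01 on at least 3 arrays were kept. Symbols come from the platform annotation. One limma model (R 4.3.3, limma 3.58.1) with a mean per group was fitted on all 19439 kept probes, with Benjamini-Hochberg adjustment over all of them and calls under 0.05, and was tested on simulated data. List genes were read from their brightest kept probe, while the shares beside their counts are over all kept probes, an unlike unit. The text names the members, the other kept serpins, PRKCD, genes ranked 1 to 4 by adjusted p within their list and line, and the 5 genes most like SERPINB7. Of the list genes only part is named, picked after the values were seen and mostly those whose call held on leaving out arrays. The members and lists were chosen with earlier results of these data known. Replicate numbers of the labels were checked as pairs. Deviations from the group means of same-numbered arrays correlated at 0.38, 0.33 and 0.54 in MDA-MB-468 and at 0.30, -0.04 and 0.07 in BT-549. They were not set against arrays of unlike number, so whether the numbers pair the samples was not tested. The main model holds no term for the replicate number, and any pairing is left out of it. Promoter sequences and gene order are from RefSeq (GRCh38.p14), in which all 9 members were found. Figures were drawn with Python 3.11.15 and matplotlib 3.10.9.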

Additional observations from a re-analysis of the deposited data

Results flagged for a closer look

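SERPINB5 had a siPRKCD effect that tested as different between the lines (MDA-MB-468 effect minus BT-549 effect -0.44, adjusted p = 0.025). No BT-549 array detected the probe, so that a fall could not show there and the value restates the fall in MDA-MB-468 cells. The call was also lost on leaving out MDA-MB-468 siPRKCD replicate 1, MDA-MB-468 siControl replicate 2, BT-549 siPRKCD replicate 1 or BT-549 siControl replicate 1 or 2 (adjusted p 0.057 to 0.069) and with median centring (adjusted p = 0.062). The response of SERPINH1, detected on all arrays of both lines, differed in the same kind of test (0.75, adjusted p = 0.020), with all 3 siPRKCD arrays below all 3 siControl arrays in BT-549 cells and overlapping groups in MDA-MB-468 cells. That call was lost without MDA-MB-468 siControl replicate 2 or BT-549 siControl replicate 1 (adjusted p 0.054 to 0.057), with background correction (adjusted p = 0.063) and with median centring (adjusted p = 0.065).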

How the results depend on the processing

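With 2, 3, 2 and 5 of the 6 member probes called in MDA-MB-468 cells, in BT-549 cells, in the difference of effects and between the lines, the counts were 1, 1, 1 and 5 with background correction and 1, 1, 0 and 4 with median centring, while the authors' normalized table gave 2, 3, 2 and 5. Without a filter on detection 1 probe was called in MDA-MB-468 cells. With probes detected on all 12 arrays alone, which leaves fewer probes, 0, 1 and 2 were called in MDA-MB-468 cells, in the difference and between the lines. Leaving out 1 array at a time gave 1 to 2, 1 to 3, 0 to 3 and 4 to 5. The replicate block, with pairs within each line, left these counts at 2, 3, 2 and 5, and of the serpin values it changed 1 call, that of SERPINA3 in BT-549 cells (adjusted p = 0.011). Median centring called 432 probes higher and 210 lower in the difference of effects (67.3% higher), against 765 and 712 (51.8%).

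Sign changes were seen in values near 0 that were not called. With median centring the siPRKCD effect in MDA-MB-468 cells was -0.02 for SERPINB8 (ILMN_2397028) and 0.00 for SERPINA10. On leaving out arrays it ran from -0.11 to 0.07 for that SERPINB8 probe, -0.05 to 0.16 for SERPINE2 and -0.04 to 0.02 for SERPINA10. In BT-549 cells it ran from -0.04 to 0.21 for SERPINB1 and -0.09 to 0.10 for SERPINA10, whose difference of effects ran from -0.11 to 0.08. No called serpin value changed its direction under the alternatives run. The cause of the lost calls was not tested. Signals near background, 3 arrays a group and a single probe for most members limit the precision.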
